A study of Mus musculus with 6 samples.

Results

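The Schlafen genes of the mouse were examined in CD8+ T cells labelled Dot1l knockout or wild type. The 8 members (Slfn1, Slfn2, Slfn3, Slfn4, Slfn5, Slfn8, Slfn9 and Slfn14) were listed by name, and each was to be read from the probe set selected by its mean over all 6 arrays among those annotated to exactly 1 gene symbol. Each of the 7 members measured had a single such probe set, so the levels decided nothing, and the group of an array played no part. Slfn9 had none and was not measured on its own. The 7 are part of 22180 genes tested. Members are given below as differences between knockout-labelled and wild type arrays, a contrast that the choice of probe sets did not use. The family itself was chosen with earlier results of these data known. Its counts beside the shares of all genes are therefore a description.

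Purified CD8+ T cells from spleen and peripheral lymph nodes of C57BL/6 mice gave 3 arrays per group. Knockout mice came from crossing Dot1l flox/flox with CD4-Cre animals. The Cd4 promoter switches Cre on in developing T cells of the thymus, so helper and killer lineages both lose a floxed gene. The labels used here do not state whether the wild type mice carried Cre or the floxed alleles, the age or sex of the mice, whether animals were pooled, or whether replicate arrays stand for different animals. The p-values therefore measure the spread between these arrays, which may be technical.

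Schlafen genes, named after the German word for sleeping, were first described in mouse thymocytes and T cells, where early work tied them to growth control and quiescence. All share an N-terminal core, which in several members cleaves or binds RNA such as tRNA and ribosomal RNA, and the long members carry in addition a helicase-like C-terminal part. Many are induced by type I interferon, the cytokine that signals virus infection, through STAT and IRF factors that bind response elements in promoters. The mouse genes lie together in a cluster on chromosome 11.

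Of the 7 measured members 3 rose in knockout-labelled arrays (Slfn3, Slfn5 and Slfn8), 0 fell and 4 did not pass (limma, Benjamini-Hochberg adjusted p under 0.05 over all genes). Among all genes tested, 4.3% were called higher and 1.2% lower, shares to be read beside every list count below. All 3 rises were at least 2-fold, and 1.15% of all genes both passed and rose at least 2-fold. The groups did not overlap, with the knockout-labelled arrays higher, in 4 of the 7 members and in 13.7% of all genes. The median log2 difference was 0.34 over the 7 members and -0.01 over all genes. After another quantile normalization the same members passed, with Slfn3 just under 2-fold (log2 difference 0.978). Over all genes, however, that step moved the share of calls that were higher from 78.2% to 57.1%.

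**Figure D1:**
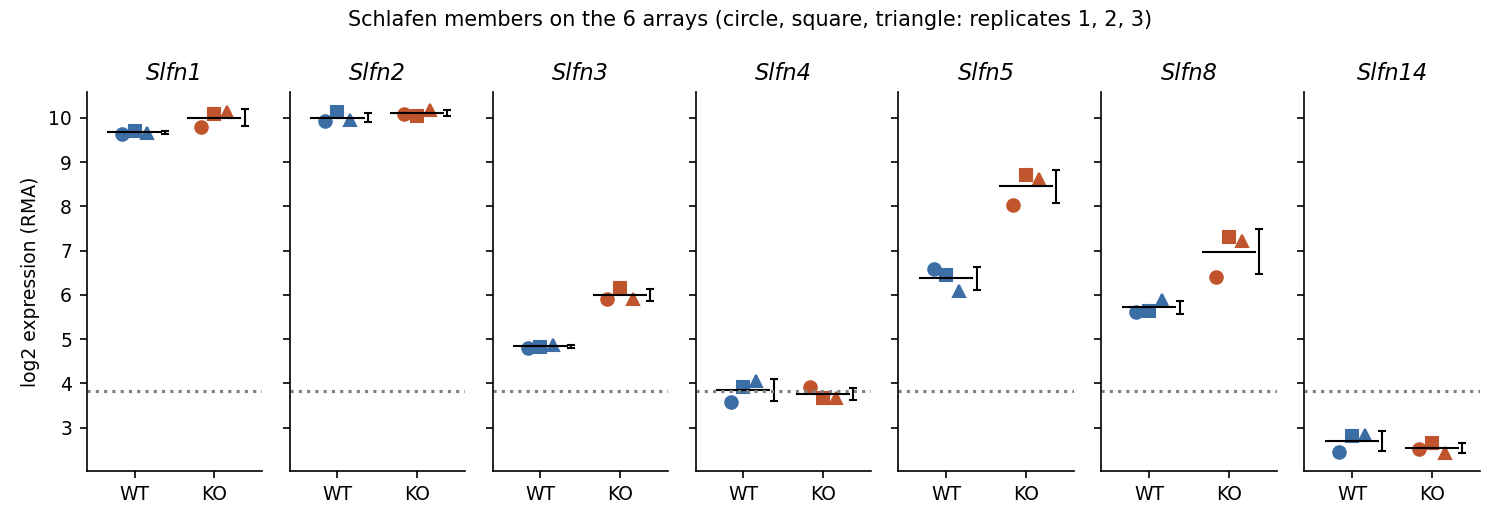
Log2 expression of the 7 measured Schlafen genes on the 6 arrays; blue is wild type (WT), orange is Dot1l knockout (KO), circles, squares and triangles are replicates 1, 2 and 3, horizontal bars are means, error bars are SD (n = 3) and the dotted line is the background guide of 3.84. Knockout-labelled arrays lie above all wild type arrays for Slfn3, Slfn5, Slfn8 and, by less, Slfn1, while the groups mix for Slfn2, Slfn4 and Slfn14.

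As a guide to background, the 95th percentile of the mean levels of 1390 olfactory and vomeronasal receptor genes was 3.84 on the log2 scale. Of the 7 members, 5 had a mean above it, among them all 3 that rose, and 7.87% of the 11389 genes above it were called higher. Slfn4 and Slfn14 lay below. Probes differ in how brightly they bind, so the guide is rough and levels of different members are not ranked. The summed linear levels of marker lists given below follow the brightest probe sets most. All 10 measured CD8+ T cell markers, Cd8a and Cd3e among them, exceeded the guide on every array. Dot1l read 7.46, 6.96 and 7.18 in wild type and 7.31, 7.26 and 7.33 in knockout-labelled arrays, so its probe set did not separate the groups (log2 difference 0.10, SE 0.13, limma adjusted p = 0.765). The labels do not name the deleted exon, and a probe set lying outside it would say nothing about the deletion.

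Among the long members, Slfn5, a nuclear protein known to act on transcription of interferon-responsive genes, showed the largest difference of the family. It read 6.58, 6.45 and 6.09 in wild type and 8.03, 8.72 and 8.62 in knockout-labelled arrays. Every knockout-labelled array exceeded every wild type array, with replicate 1 the lowest of its group. The means were 6.37 ± 0.26 and 8.46 ± 0.37 (SD, n = 3 each), a log2 difference of 2.08 (SE 0.20, 95% interval 1.65 to 2.52), or 4.24-fold (limma adjusted p = 0.000356). Slfn5 ranked 27 of the 22180 genes by size of rise.

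Slfn8, a long member of immune cells, read 5.62, 5.65 and 5.89 in wild type and 6.39, 7.31 and 7.23 in knockout-labelled arrays. The groups did not overlap, and knockout replicate 1 again lay below the others of its group. Means of 5.72 ± 0.15 and 6.98 ± 0.51 gave a log2 difference of 1.26 (SE 0.22, 95% interval 0.76 to 1.75), or 2.39-fold, with a limma adjusted p of 0.0103. This call ended when knockout replicate 3 was left out (difference 1.13, adjusted p = 0.0528).

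Slfn9, the neighbour of Slfn8, had no probe set of its own. A probe set annotated to Slfn8 and Slfn9 together read 4.998, 4.444 and 4.550 in wild type and 5.799, 6.303 and 6.185 in knockout-labelled arrays. These groups did not overlap either, with a log2 difference of 1.43 (SE 0.20, limma adjusted p = 0.0149 over all 41345 probe sets). Which of the genes gave that signal cannot be told from the annotation. A second shared probe set was annotated to Slfn5 and the long noncoding RNA Slfn5os that overlaps it. It read 4.138, 3.101 and 3.999 in wild type and 4.095, 4.318 and 4.141 in knockout-labelled arrays. The groups overlapped (difference 0.44, SE 0.27, limma adjusted p = 0.468 over all probe sets). The means of this probe set, 3.75 in wild type and 4.18 in knockout-labelled arrays, lay around the background guide.

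Slfn14, a ribosome-associated endoribonuclease known from platelets and red cell precursors, lay below the guide on all 6 arrays. It read 2.44, 2.82 and 2.84 in wild type and 2.52, 2.65 and 2.42 in knockout-labelled arrays. The groups overlapped, and the log2 difference was -0.17 (SE 0.13, 95% interval -0.46 to 0.13, limma adjusted p = 0.576). Below the guide such a difference has no clear size. Of 6 measured platelet and megakaryocyte markers 1 rose, the integrin gene Itgb3 (5.70 to 7.28 in means), and 0 fell. Of these 6, 4 had a mean above the guide, namely Itgb3, Treml1 (4.55 to 4.34), Gp9 (4.42 to 4.18) and Itga2b (3.77 to 3.94). The group means of the platelet chemokine genes Pf4 (3.48 to 3.68) and Ppbp (3.707 to 3.601) were below it. The summed linear level of the 6, which Itgb3 leads, was 129 to 144 in wild type and 226 to 251 in knockout-labelled arrays, and their median difference was 0.03. Of 4 measured erythroid markers 0 passed.

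The promoters of the long members are shown because 3 of them hold the core of the interferon-stimulated response element, a promoter site of interferon-induced genes. The stretches below come from the RefSeq promoter table (GRCm38.p6), read 5′ to 3′ on the strand of the gene, with the matching letters in capitals. Slfn5 lies at chr11:82951917-82951986 on the plus strand, Slfn8 at chr11:83020819-83020888 and Slfn9 at chr11:82991836-82991905, both on the minus strand.
Slfn5: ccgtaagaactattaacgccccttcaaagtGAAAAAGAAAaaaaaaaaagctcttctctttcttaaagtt
Slfn8: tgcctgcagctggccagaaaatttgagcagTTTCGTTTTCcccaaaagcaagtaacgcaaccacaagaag
Slfn9: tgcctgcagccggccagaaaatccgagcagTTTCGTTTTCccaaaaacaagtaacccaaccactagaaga

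The motif searched was GAAANNGAAA on both strands of 300-base windows, from 250 bases before to 50 after the start of the gene. It was found in 3 of the 8 members with a promoter in the table, namely Slfn5, Slfn8 and Slfn9, and in 3.44% of all 32851 promoters. In Slfn5 the match began at -155 from the start site, inside an A-rich run. In Slfn8 and Slfn9 the match lay on the opposite strand, at -48 in the nearer Slfn8 window and at -45 in Slfn9. Over the 40 bases up to the end of the motif these promoters shared 37 bases. Slfn3, which rose, had no match, nor did Slfn1, Slfn2, Slfn4 or Slfn14, which says only that these letters are not in those windows. The gamma-activated site, known from interferon gamma responses (TTCNNNGAA), was in 0 members and 8.3% of promoters, and an NF-kappa-B core (GGGANNNNCC) in Slfn9 alone among members and in 20.7% of promoters.

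Of the short and intermediate members, Slfn3, described in T cell subsets and in gut epithelium, was the only one called. It read 4.81, 4.82 and 4.87 in wild type and 5.91, 6.16 and 5.91 in knockout-labelled arrays. The groups were far apart beside their spread, and here knockout replicates 1 and 3 read alike. The means were 4.83 ± 0.03 and 6.00 ± 0.14, a log2 difference of 1.16 (SE 0.11, 95% interval 0.92 to 1.40), or 2.24-fold (limma adjusted p = 0.000331). The rise of Slfn3 stayed between 0.978 and 1.201 under the 15 alternatives tried.

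Slfn4, known from myeloid cells and macrophage activation, sits next to Slfn3 in the cluster. It read 3.58, 3.92 and 4.07 in wild type and 3.91, 3.67 and 3.68 in knockout-labelled arrays, around the guide in both groups. The groups overlapped (log2 difference -0.10, SE 0.14, 95% interval -0.42 to 0.21, limma adjusted p = 0.772). Its sign rested on wild type replicate 3, since the other 5 arrays gave 0.0022. Of 12 measured monocyte, macrophage and neutrophil markers 1 rose, the integrin gene Itgam (0.60, adjusted p = 0.0215), and 0 fell, with a median difference of -0.10. The macrophage gene Adgre1 differed by -0.60 without overlap of the groups and did not pass (adjusted p = 0.114). Their summed level on the linear scale was 182 to 198 in wild type and 184 to 193 in knockout-labelled arrays. Of the 12, 5 had a mean above the guide (Itgam, Csf1r, Cd68, Lyz2 and Csf3r), and Ly6g, S100a8 and S100a9 of neutrophils were among the 7 below it.

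Slfn1, whose forced expression is known to slow thymocyte growth, read 9.65, 9.71 and 9.66 in wild type and 9.79, 10.10 and 10.14 in knockout-labelled arrays. The groups did not overlap, but the gap was small. The log2 difference was 0.34 (SE 0.12, 95% interval 0.07 to 0.60 for this gene alone), or 1.26-fold, and it did not pass over all genes (limma adjusted p = 0.160). With trend and robust fitting the same difference passed (adjusted p = 0.0469).

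Slfn2, which T cells need for quiescence and survival and which guards tRNA from cleavage during activation, read 9.94, 10.13 and 9.95 in wild type and 10.09, 10.04 and 10.19 in knockout-labelled arrays. The groups overlapped. The log2 difference of 0.10 (SE 0.10, limma adjusted p = 0.688) had a 95% interval of -0.14 to 0.33. That interval leaves room for small changes in either direction and does not reach the rises measured for Slfn3, Slfn5 or Slfn8. The differences between members were themselves not tested.

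**Figure D2:**
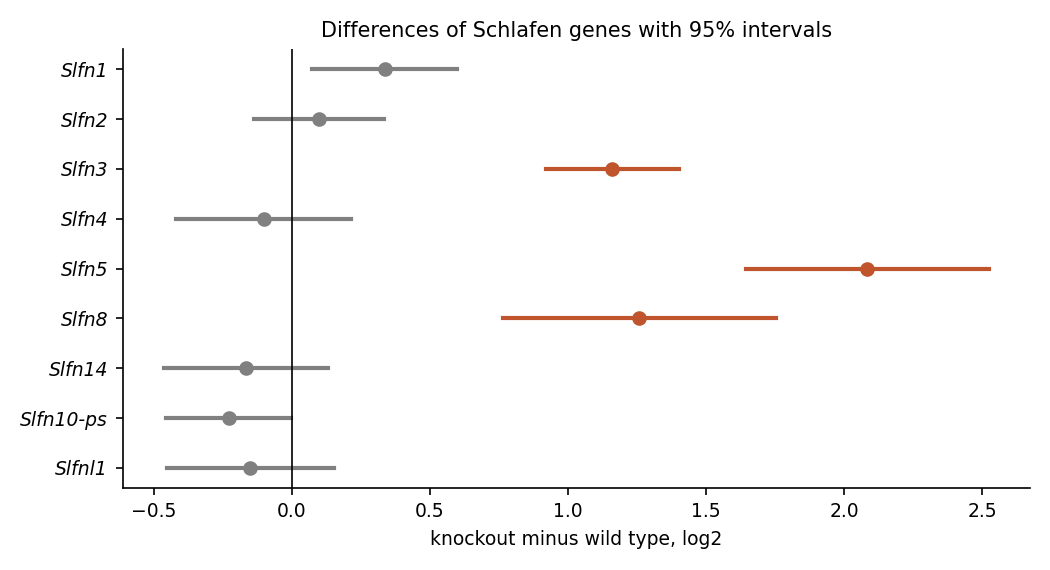
Log2 difference, knockout minus wild type, of 7 Schlafen members and of Slfn10-ps and Slfnl1, with 95% intervals from limma (n = 3 arrays per group); orange marks genes that passed over all genes. Slfn5 (2.08), Slfn8 (1.26) and Slfn3 (1.16) stand to the right of the other 6, whose differences lie between -0.23 and 0.34.

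The promoters of these members shared another stretch, printed because it occurs in both short and both intermediate genes whether or not they rose. They lie on the plus strand of GRCm38.p6, Slfn1 at chr11:83116716-83116784, Slfn2 at chr11:83065027-83065095, Slfn3 at chr11:83191258-83191326 and Slfn4 at chr11:83175083-83175151. Capitals mark the shared letters.
Slfn1: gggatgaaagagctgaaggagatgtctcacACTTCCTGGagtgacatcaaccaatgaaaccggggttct
Slfn2: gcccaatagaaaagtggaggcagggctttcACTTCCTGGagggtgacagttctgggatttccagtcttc
Slfn3: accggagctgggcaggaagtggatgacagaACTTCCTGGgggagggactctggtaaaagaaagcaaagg
Slfn4: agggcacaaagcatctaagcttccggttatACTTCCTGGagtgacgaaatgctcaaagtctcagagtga

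The stretch ACTTCCTGG was noticed in these promoters and then searched on both strands, so its presence there is a description. It holds the core letters of sites that ETS factors bind. It was found in 4 of the 8 members, between -74 (Slfn1) and -42 (Slfn3) from the start site. Counted by promoter, it was in 4 of 9 from members and in 0.843% of all. Slfn1, Slfn2 and Slfn4 carried it without passing the test, and Slfn3 carried it and rose.

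Outside the member list, Slfn10-ps, a locus named as a pseudogene and lying between Slfn8 and Slfn2, read 5.22, 5.04 and 5.20 in wild type and 4.93, 4.95 and 4.89 in knockout-labelled arrays. All knockout-labelled arrays were lower, by -0.23 on the log2 scale (SE 0.10, limma adjusted p = 0.267), which passed only after another quantile normalization (-0.42, adjusted p = 0.0358). Slfnl1, a distant relative on chromosome 4, differed by -0.15 (SE 0.13, adjusted p = 0.626).

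In chromosomal order no measured gene with a probe set of its own lay between Slfn5 and Slfn8, whereas Slfn3 was apart from them. Slfn5 opens the cluster, then come Slfn9, Slfn8, Slfn10-ps, Slfn2, Slfn1, Slfn4, Slfn3 and Slfn14. Slfn10-ps, Slfn2, Slfn1 and Slfn4, none of which passed, lie between Slfn8 and Slfn3. Of the 10 genes before the cluster 8 were measured, of which 0 rose and 1 fell, the ribosome assembly gene Nle1 (6.52 ± 0.07 to 5.84 ± 0.20, difference -0.68, SE 0.12, limma adjusted p = 0.0120). Of the 10 genes after it 4 were measured and 0 passed. The nearest measured neighbours, the noncoding RNA Unc45bos before Slfn5 and the clathrin adaptor gene Ap2b1 after Slfn14, differed by -0.01 (adjusted p = 0.979) and 0.28 (adjusted p = 0.187). Unc45bos (2.38 and 2.37 in group means) and the next gene out, Unc45b, had means below the guide, so the nearest neighbour above it on that side was Nle1. AI662270, a noncoding RNA between Slfn3 and Slfn14, differed by 0.19 (adjusted p = 0.427).

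**Figure D3:**
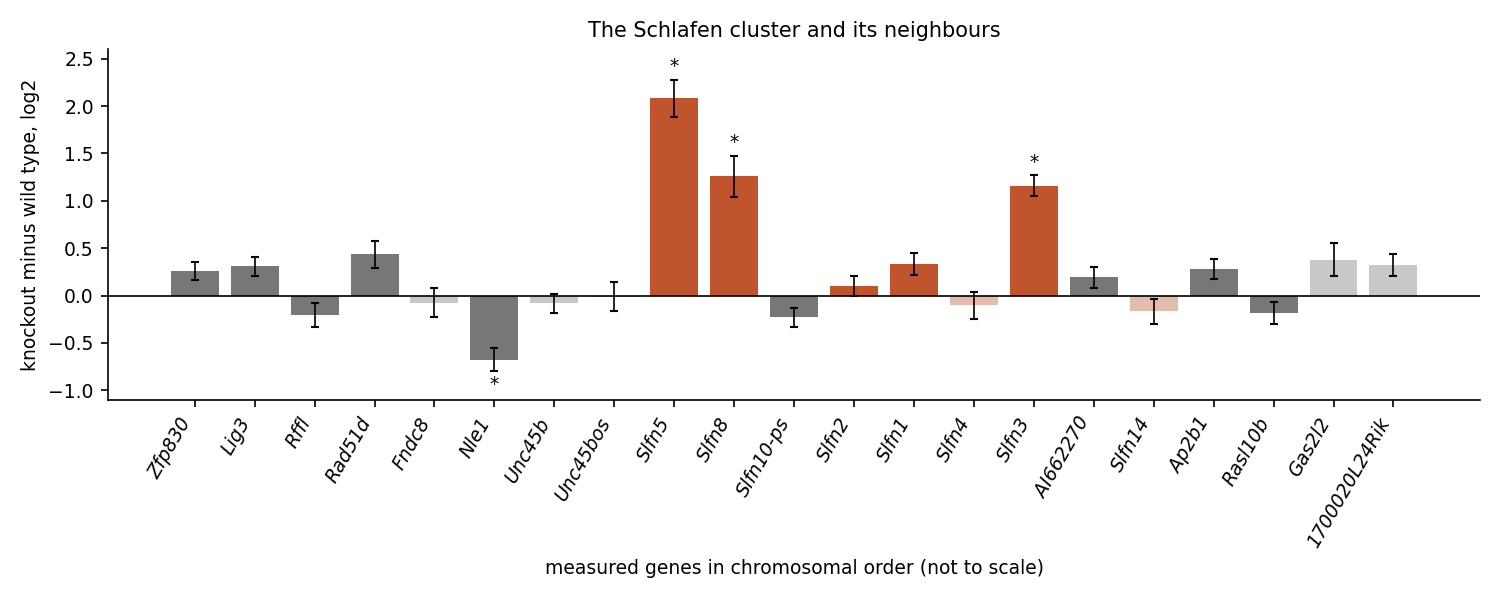
Log2 difference, knockout minus wild type, of each measured gene from Zfp830 to 1700020L24Rik in chromosomal order (not to scale); orange bars are Schlafen members, grey bars other genes, pale bars genes with a mean below the background guide, error bars SE and asterisks limma adjusted p under 0.05. Slfn5, Slfn8 and Slfn3 are the 3 asterisks above 0, and Nle1 is the one below.

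Because type I interferon induces several Schlafen genes, they were set beside 26 measured interferon-stimulated genes, a list that holds no Schlafen gene and was written with earlier results known. Of these 23 rose and 0 fell, beside 4.3% and 1.2% of all genes, with a median log2 difference of 1.37. Slfn8 (1.26) and Slfn3 (1.16) lay below this median and Slfn5 (2.08) above it, and these distances were not tested. The antiviral factor gene Irf7 rose by 1.99 (SE 0.12, limma adjusted p = 3.74e-05), the synthetase-like gene Oasl2 by 2.41 (SE 0.15), the nucleotide kinase gene Cmpk2 by 2.14 (SE 0.16) and the RNA sensor gene Ifih1 by 1.90 (SE 0.15).

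Knockout replicate 1 was the lowest of its group for 3 of the 7 members (Slfn1, Slfn5 and Slfn8), and replicates 2 and 3 for 2 each. Among all genes called higher, replicate 1 was the lowest in 39%. The like set is the 3 called members, since the other 4 did not pass. Replicate 1 was the lowest for Slfn5 and Slfn8, while Slfn3 read 5.9147 in replicate 1 and 5.9144 in replicate 3. Of the 26 interferon-stimulated genes knockout replicate 1 was the lowest for 24. Relative to the wild type mean the median interferon-stimulated gene stood at 0.96 in knockout replicate 1, 1.56 in replicate 2 and 1.61 in replicate 3. Slfn5 stood at 1.66, 2.35 and 2.25, Slfn8 at 0.68, 1.59 and 1.51, and Slfn3 at 1.08, 1.32 and 1.08. For Slfn3 replicates 1 and 3 were tied below replicate 2, while for Slfn5 and Slfn8 replicate 1 alone was low. With 3 arrays this is a description.

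**Figure D4:**
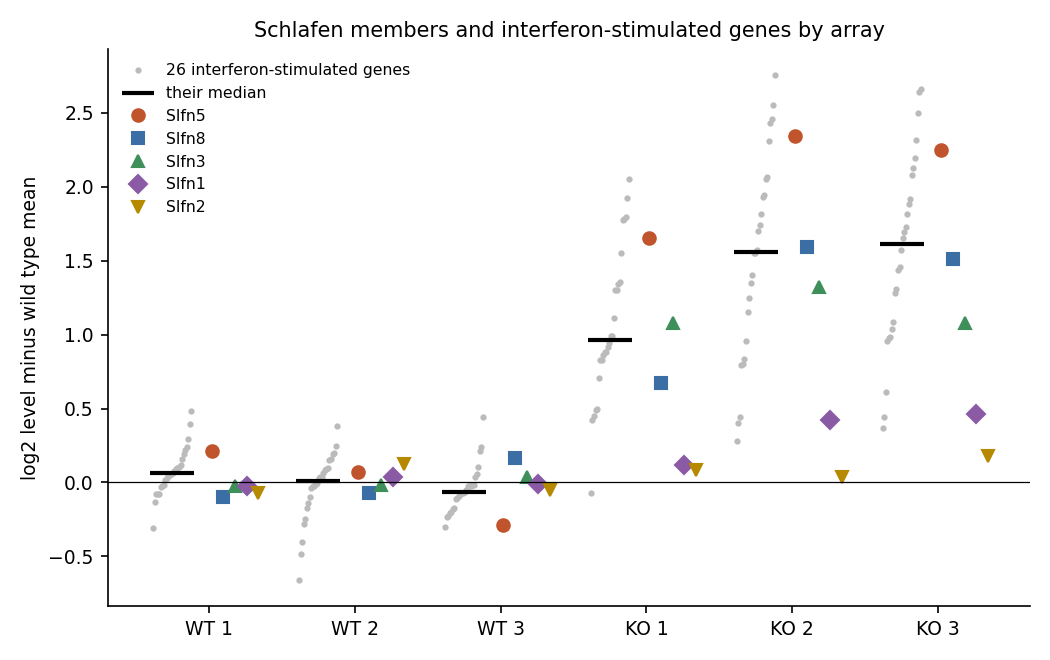
Log2 level minus the gene's wild type mean on each array; grey dots are 26 interferon-stimulated genes sorted by size, black bars their median, coloured markers 5 Schlafen genes (WT wild type, KO Dot1l knockout, numbers are replicates). Slfn5 and Slfn8 are lower on KO 1 than on KO 2 and KO 3, as is the median of the list (0.96, 1.56 and 1.61), while Slfn2 stays near 0 on all arrays.

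Of 13 measured interferon receptor and signalling genes 4 rose and 1 fell, with a median of 0.20. Usp18, a brake on the type I interferon receptor, rose by 1.87 (SE 0.16, limma adjusted p = 0.000228), and the feedback inhibitor gene Socs1 by 0.95 (SE 0.17). The kinase gene Jak2 rose by 0.55 (SE 0.10), and the fourth was the receptor chain gene Ifnar2 (0.45, adjusted p = 0.0429). Ifngr2, a chain of the interferon gamma receptor, fell from 9.14 ± 0.08 to 7.87 ± 0.28 (-1.27, SE 0.14, adjusted p = 0.000960).

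The other lists followed known roles of Schlafen proteins. Of 18 T cell quiescence genes 2 rose and 1 fell, with a median of 0.01. These were the factor gene Klf4 (1.06, SE 0.18), the antiproliferative gene Tob1 (0.48, SE 0.10) and the naive cell factor gene Lef1 (-0.63, SE 0.10), while Il7r differed by 0.32 (limma adjusted p = 0.160). Of 14 genes of tRNA cleavage and translation stress (median 0.11) 2 rose and 0 fell, the RNA-activated kinase gene Eif2ak2 (1.37, SE 0.20), which is also in the interferon list, and the stress factor gene Ddit3 (0.81, SE 0.13). In that list Ppp1r15b (0.30) and Impact (0.38) did not pass. Of 12 replication stress genes (median 0.09) 1 rose and 0 fell, the checkpoint kinase gene Chek1 (0.61, SE 0.14, adjusted p = 0.0329), and Rpa1 (-0.41), Mcm2 (0.36) and Rpa2 (-0.39) did not pass.

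Some genes listed as markers of other cells moved in the same arrays, in which 4.3% of all genes were called higher and 1.2% lower. Which cells of the preparations gave their RNA was not tested. Of 10 measured B cell markers (median 0.25) 3 rose, Cd22 (1.29), Ms4a1 (1.13) and Cd79a (0.86). A mean above the guide was seen for 6 of the 10, not including Ms4a1 (3.24 to 4.37 in group means). The other 7 did not pass. Among them Cd79b (0.24), Bank1 (0.24), Fcer2a (0.42) and Blk (-0.09) had a mean above the guide and overlapping groups. The summed linear level of the 10 was 262 to 290 in wild type and 353 to 399 in knockout-labelled arrays. The B cell factor genes Pax5 and Ebf1 stayed below the guide in both groups' means. Of 6 NK cell markers (median 0.43) 2 rose, Klri2 (0.78) and Tyrobp (0.43), with sums of 129 to 160 and 174 to 199. Ncr1 (0.44) and Klrb1c (0.90) did not pass. The group means of Klrb1c were 3.25 in wild type, below the guide, and 4.15 in knockout-labelled arrays, above it. Of 8 dendritic cell markers (median -0.11) 1 rose, the integrin gene Itgax (1.14), and 3 had a mean above the guide. Their sums were 362 to 477 and 353 to 364. Cd209a, which has the largest part in these sums, differed by -0.37 without overlap of the groups and did not pass. Of 7 CD4 and regulatory T cell markers (median -0.06) Ikzf2 (1.16) and Il2ra (0.69) rose. Cd40lg (-0.88) fell, from a mean of 3.93 in wild type, above the guide, to 3.05 in knockout-labelled arrays, below it. In that list Ctla4 (-0.54, groups not overlapping), Foxp3 (-0.25), Zbtb7b (-0.06) and Cd4 (0.06, mean below the guide) did not pass. Of the 10 CD8+ T cell markers 1 fell, Cd5 (-1.01). The part of such cells in the Schlafen differences was not tested. In RNA from whole preparations, fewer cells of a type and less RNA per cell cannot be told apart.

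The genes most like each called member were found by the root mean square distance between array values, each gene centred on its mean over the 6 arrays. Nearest to Slfn5 were Sdc3 (distance 0.09 on the log2 scale), Tlr3 (0.10) and Cmpk2 (0.12). Nearest to Slfn8 were Mlkl (0.15), P2rx7 (0.16) and Ube2l6 (0.17). Nearest to Slfn3 were Ikzf2 (0.07), Sox4 (0.08) and Podnl1 (0.08). No called member had another member among its 3 nearest, since Slfn8 lay 0.48 from Slfn5 and 0.27 from Slfn3. Such distances rest on 6 arrays and follow mainly the size of the group difference.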

How the data were processed

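RNA from 6 CD8+ T cell preparations (3 per group) was measured on Affymetrix whole-transcript arrays. The authors deposited log2 expression values per probe set. Per the submitters' processing notes these are RMA values made with R 3.1.1. This method corrects background, equalises array distributions and summarises probes, and it compresses differences of dim genes. The labels state neither its settings nor the annotation release or build. Array medians lay between 3.69 and 3.78. Arrays have no count depth, and their number limits the precision.

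Of 41345 probe sets, 23521 named 1 gene symbol in the platform annotation, 1814 several and 16010 none. The brightest single-symbol probe set per gene left 22180 genes, which were fitted for knockout minus wild type by lmFit and eBayes of limma 3.58.1 (R 4.3.3), with no covariate, with Benjamini-Hochberg adjustment over all genes at 0.05. The script was tested on simulated data. Probe sequences were not used here, so cross-binding between similar Schlafen transcripts was not tested.

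The members and gene lists were chosen with earlier results of these data known. Named genes were the members, the other Schlafen genes, up to 4 genes of smallest p in each list, neighbours that passed or lay nearest, the 3 most like genes and Dot1l. Others were chosen after their values were seen: Cd3e, Ifnar2, Itga2b, Ppbp, Cd68, Lyz2, Csf3r, Unc45b, Ly6g, S100a8, S100a9, Cd79b, Bank1, Blk, Pax5, Ebf1, Foxp3, Zbtb7b and Cd4. Gene order and promoters came from RefSeq (GRCm38.p6). All 8 members had a promoter there. Alternatives were array scaling, filters on dim genes (25th and 50th percentile of level), trend and robust fitting, array weights, other probe set rules, thresholds, a replicate block and leaving out each array.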

Additional observations from a re-analysis of the deposited data

How the results depend on the processing

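Slfn3 and Slfn5 passed under all 15 alternatives fitted, Slfn5 at 1.94 to 2.30. Slfn8 passed under 14 (1.09 to 1.55) and not without knockout replicate 3. Its limma adjusted p of 0.0103 in the main fit also missed the stricter threshold of 0.01, at which 2 members passed. Slfn1 passed with trend and robust fitting, Slfn10-ps after another quantile normalization, and Slfn4 lay between -0.24 and 0.0022 when 1 array was left out (0.0022 without wild type replicate 3). The cause was not tested. Slfn14 was absent from both level filters and Slfn4 from the stricter one. The count of members was 2 to 3 when 1 array was left out. Over all genes 1220 passed, 751 with all probe sets adjusted together, 534 at an adjusted p under 0.01, 289 with a 2-fold minimum, and 615 to 1307 without 1 array (780 without wild type replicate 3, and 745, 696 and 615 without knockout replicate 1, 2 or 3). Same-numbered arrays did not deviate together (correlations -0.074, -0.157 and -0.0741 across genes). A replicate block gave 912 genes and the same 3 members.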
